A study of Mus musculus with 3 samples.

Results

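The inflammasome genes described here are 10 genes for the sensors, adaptor, caspases and substrates of inflammatory cell death: Casp1, Casp4, Casp8, Nlrp3, Nlrc4, Aim2, Pycard, Gsdmd, Il1b and Il18. They were chosen by name, with levels on these arrays known, and are 10 of 22180 genes measured by 11 of 41345 probe sets. Gsdmd has a pair of probe sets and each other member has 1, and no probe set that names a member names a further gene. Since Casp1 was known beforehand to differ between mast cells and type 2 innate lymphoid cells, its values are given as a description.

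The study measured 3 populations sorted from the peritoneal cavity, with 1 whole-transcript array each. These were mast cell progenitors (c-kit high, FcεRI positive, low side scatter, integrin β7 high), mature mast cells (c-kit high, FcεRI positive, high side scatter, integrin β7 negative to intermediate) and type 2 innate lymphoid cells (ILC2s; lineage negative, c-kit negative or low, FcεRI negative, CD127 and CD25 positive). All 3 gates took ST2 positive cells, and both mast cell gates were CD127 and CD25 negative. All came from untreated female BALB/c mice aged 10 to 11 weeks, whose cells were pooled from 5 animals before sorting, so the mice cannot be told apart. From each population 100 cells were lysed and their RNA amplified. Without replicates a level carries no error and a difference has no test or p-value, and precision is limited by the number of arrays. In bulk samples, fewer cells that carry a transcript and less transcript per cell cannot be told apart.

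An inflammasome is a cytosolic complex in which a sensor protein, on meeting a microbial product or a sign of damage, gathers the adaptor ASC and activates the protease caspase 1. Caspase 1 then cleaves the precursors of the cytokines interleukin 1β and interleukin 18, and gasdermin D, whose freed fragment forms pores in the cell membrane. The pathway is known best from macrophages, where sensor and cytokine genes are often induced by a first, priming signal before activation. A transcript level shows neither whether the protein is present nor whether it has been activated.

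Casp1 carried the large difference of the group. Its log2 level was 5.53 in progenitors and 5.38 in mature mast cells, against 10.24 in ILC2s. The ILC2 array thus stood far above both mast cell arrays, which lay below the median of their own arrays (6.32 for progenitors and 6.30 for mature mast cells, over 23521 probe sets that name a single gene).

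Casp4 lies next to Casp1 on chromosome 9 and encodes the caspase that senses cytosolic lipopolysaccharide in mice, known there as caspase-11. Its level was 5.57 in progenitors, 5.48 in mature mast cells and 5.48 on the ILC2 array, so the neighbouring caspase gene had nearly the same low level on all arrays. The annotated starts of these genes lie 10332 bases apart on the plus strand. The 250 bases before each start are shown, since Casp1 differed between mast cells and ILC2s while the adjacent, related gene differed little. The sequences are from RefSeq on GRCm38.p6, at chr9:5298267-5298516 for Casp1 and chr9:5308599-5308848 for Casp4, the first of 2 starts listed for Casp4. Capitals mark matches to the NF-kB motif.
Casp1: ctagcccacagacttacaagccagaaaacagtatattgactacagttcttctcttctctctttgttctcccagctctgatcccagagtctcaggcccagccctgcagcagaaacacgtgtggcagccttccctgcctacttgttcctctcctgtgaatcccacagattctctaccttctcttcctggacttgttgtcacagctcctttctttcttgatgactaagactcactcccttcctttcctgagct
Casp4: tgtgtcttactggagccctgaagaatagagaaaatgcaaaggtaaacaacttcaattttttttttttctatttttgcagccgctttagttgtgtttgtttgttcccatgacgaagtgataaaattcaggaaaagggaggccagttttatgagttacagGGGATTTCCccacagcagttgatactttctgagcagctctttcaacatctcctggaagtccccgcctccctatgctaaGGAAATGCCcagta

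The windows were searched on both strands for the NF-kB motif GGNNTTTCC, the interferon regulatory factor element GAAANNGAA, the gamma-activated sequence TTCNNNGAA and the AP-1 motif TGANTCA, where N is any base. Casp4 had 2 matches to the NF-kB motif, GGGATTTCC and, on the opposite strand, GGAAATGCC, while the Casp1 window held no match to any of the 4 motifs. Among the first listed windows of 27025 mouse genes, 4.84% held the NF-kB motif, 7.16% the interferon regulatory factor element, 7.18% the gamma-activated sequence and 6.87% the AP-1 motif. Of the 9 members with a window in the table, Casp4 and Nlrp3 held a match to the NF-kB motif, and no other match was found. A match is a description of these letters.

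Set against ILC2s, Casp1 differed by -4.71 on the log2 scale in progenitors and by -4.85 in mature mast cells. Both mast cell levels are below the medians of their arrays, so folds were taken over those medians as lower bounds. They were at least 15.2-fold for progenitors and at least 15.4-fold for mature mast cells, with the mast cells lower. A gene was counted when its levels differed by at least 4-fold, or 2-fold, with the brighter array above its median. In progenitors Casp1 was the 1 member of 10 counted at 4-fold as lower than in ILC2s, where 0.888% of all genes were so counted. It was also the 1 member of 10 counted as lower in mature mast cells, where the share of all genes was 0.401%. None of the 10 was counted as higher in either mast cell population, even at 2-fold, where 0.766% of all genes were higher in progenitors and 1.34% in mature mast cells. With every level below its array's median set to that median, 34 of the 22180 genes differed by as much as Casp1 between progenitors and ILC2s and 31 between mature mast cells and ILC2s, Casp1 included. Both of these comparisons share the ILC2 array.

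**Figure D1:**
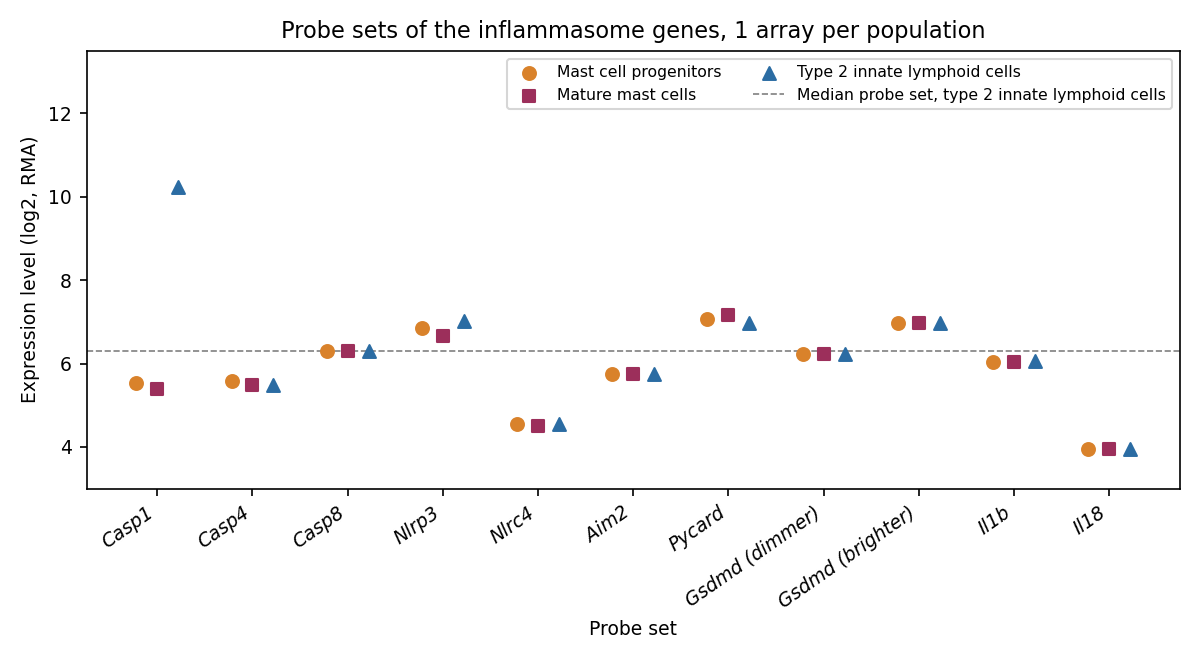
Log2 expression levels (y axis) of the 11 probe sets of the 10 inflammasome genes (x axis) on the 3 arrays, 1 point per array, with no error since there is 1 array per population. Casp1 in ILC2s (10.24) stands apart, and the points of every other probe set lie within 0.35 of each other.

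Between the mast cell populations no member reached 2-fold, against 2.44% of all genes, or 4.68% with genes of equal value on all arrays left out, so a count of 0 of 10 is near the background. For Casp1 both levels lay below the medians of their arrays, so a difference in its transcript between progenitors and mature mast cells would not be seen here.

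The 3 sensors were at like levels in all populations. Nlrp3, which responds to many signs of membrane damage and ion loss, was at 6.86 in progenitors, 6.67 in mature mast cells and 7.02 on the ILC2 array. These levels were above the median of each array, and the ILC2 array was the highest. The difference between mature mast cells and ILC2s was -0.35, the largest of any member other than Casp1, and 9.27% of all genes differed by at least as much.

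Nlrc4, which assembles when NAIP proteins bind bacterial flagellin or secretion system parts, was at 4.54 in progenitors, 4.50 in mature mast cells and 4.54 on the ILC2 array. Aim2, a sensor of cytosolic DNA, was at 5.75 on every array. Both genes lay below the median of every array, so a low transcript level would not be told from background.

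Pycard, which encodes ASC, the adaptor that links the sensors to caspase 1, was above the median throughout. Its level was 7.07 in progenitors, 7.16 in mature mast cells and 6.97 on the ILC2 array. The order was thus opposite to that of Casp1, but the difference between mature mast cells and ILC2s was only 0.19, a size that 15.8% of all genes reached. Casp8, an initiator caspase of death receptor signalling that can also cleave the interleukin 1β precursor, was at 6.29 on all arrays.

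The substrates of caspase 1 had nearly equal values. Gsdmd, which encodes gasdermin D, was at 6.97 on all 3 arrays by its brighter probe set, and by its dimmer one at 6.23 in progenitors, 6.24 in mature mast cells and 6.24 on the ILC2 array. Il1b, which encodes interleukin 1β, was at 6.04 in progenitors, 6.04 in mature mast cells and 6.07 on the ILC2 array. Il18, which encodes interleukin 18, was at 3.94 throughout. Il1b and Il18 lay below the median of every array, so a low transcript level would not be told from background. No measured substrate, adaptor or sensor gene of the group was 2-fold higher in ILC2s. Of all genes, 1.88% were so counted against progenitors and 1.26% against mature mast cells, so a count of none is near the background.

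Exact equality of values was common on these arrays. Casp8, Aim2, Il18 and the brighter Gsdmd probe set had the same value on all 3 arrays, which makes 4 of 10 members, as did 47.9% of all genes. Of the 9 members other than Casp1, 3 lay above the median of every array (Nlrp3, Pycard and Gsdmd) and 6 below it. All 9 differed by less than 0.5 on the log2 scale in each comparison, as did 93.6% of all genes between progenitors and mature mast cells, 93.3% between progenitors and ILC2s and 93.6% between mature mast cells and ILC2s. The median difference of the 10 members was 0 in each comparison, as it was over all genes. Small differences of these genes would therefore not be seen, and equal values do not show that the populations have equal transcript amounts.

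**Figure D2:**
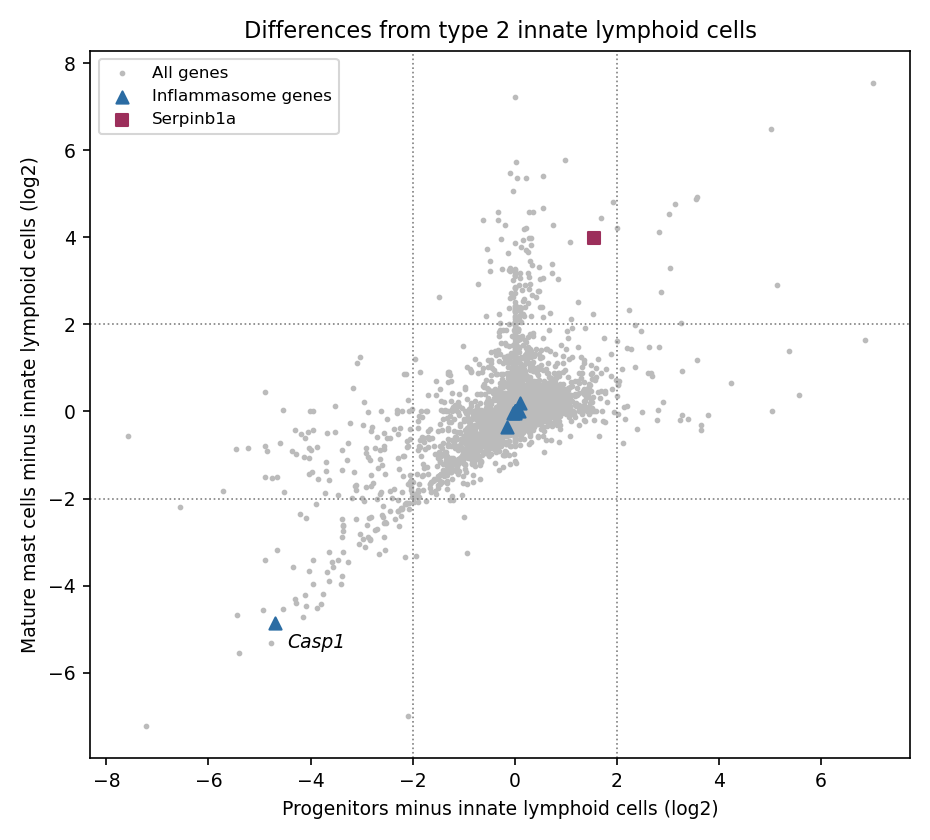
Differences of log2 levels for all 22180 genes, progenitors minus ILC2s on the x axis and mature mast cells minus ILC2s on the y axis, with dotted lines at 4-fold. Casp1 lies at -4.71 and -4.85, the other 9 inflammasome genes lie within 0.35 of 0 on both axes, and Serpinb1a lies at 1.55 and 3.98. The axes share the ILC2 array.

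The genes around Casp1 on chromosome 9 were then examined, a choice made with the Casp1 values known. In the RefSeq gene order, the 6 protein-coding genes on each side were all measured. Of these 12 neighbours, 11 differed by less than 0.2 between any pair of arrays, among them the adjacent glutamate receptor gene Gria4 (5.95 in progenitors, 5.76 in mature mast cells and 5.95 on the ILC2 array). Such small differences are common here. Of all genes, 47.9% had equal values on all arrays. Between progenitors and mature mast cells alone, 18.1% differed by at least 0.19. The share that differed by 0.2 between any pair of arrays was not counted and would be larger than for a single pair. Aasdhppt, Kbtbd3, Gria4, Casp4, Casp12, Pdgfd, Ddi1 and Dync2h1 lay below the median of every array. Differences between such low levels would not be seen. Casp12, a further caspase gene of the same cluster, was at 4.87 on every array. The exception was Dcun1d5, the last of the 6 on the Casp4 side, which was at 5.28 in progenitors, 8.48 in mature mast cells and 9.32 on the ILC2 array. Dcun1d5 differed from ILC2s by -4.04 in progenitors, where Casp1 differed by -4.71, but by only -0.84 in mature mast cells. It thus went with Casp1 in progenitors and departed from it in mature mast cells.

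**Figure D3:**
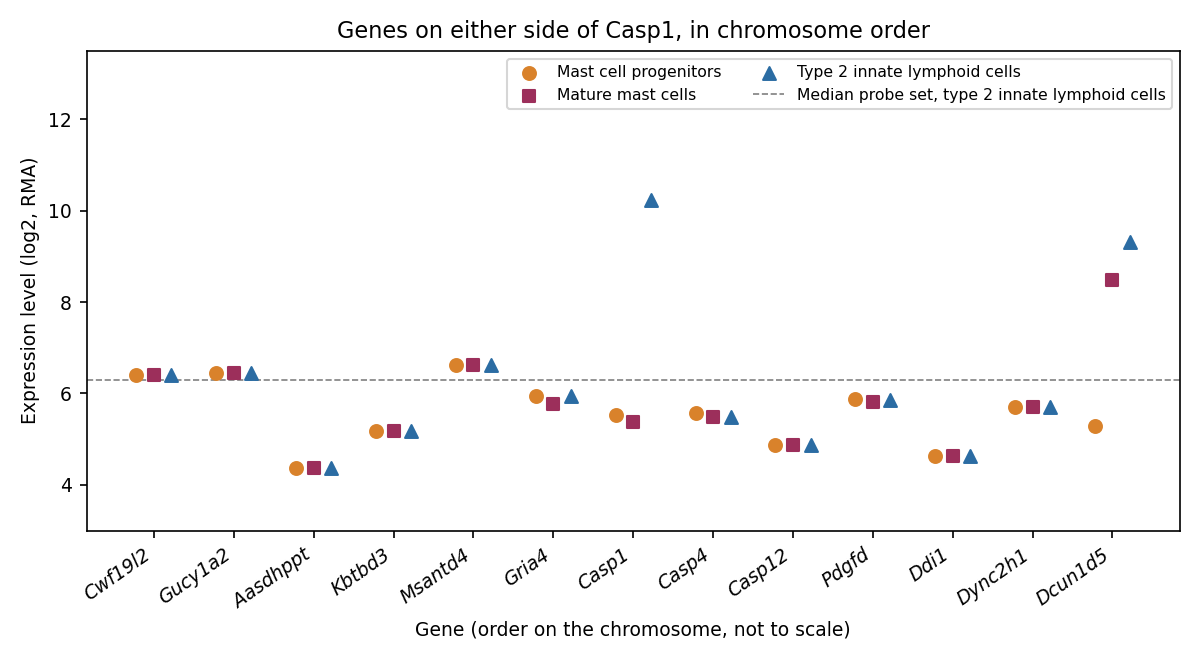
Log2 expression levels (y axis) of Casp1 and the 6 protein-coding genes on each side of it in chromosome order (x axis), 1 point per array. Casp1 in ILC2s (10.24) is far from the 2 mast cell points of the same gene, while the points of Gria4, Casp4 and Casp12 nearly coincide between populations.

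Genes with a pattern like that of Casp1 were found by the distance between levels on the 3 arrays, each gene set against its own mean. Provisional names and symbols starting with Mir or Snor were left out. Of the rest, the 5 nearest were the vomeronasal receptor gene Vmn1r48, the proteasome maturation factor gene Pomp, the fatty acid binding protein gene Fabp5 and the small Cajal body RNA genes Scarna17 and Scarna8. Their distances were 0.23 to 0.44. Genes left out can be as near, such as Mir208a (6.74 in progenitors, 6.62 in mature mast cells and 11.03 on the ILC2 array), picked with its values known. Snora73b, picked likewise, was at 6.01, 6.01 and 10.31 in the same order. Vmn1r48 was at 6.27 in progenitors, 6.27 in mature mast cells and 10.80 on the ILC2 array. Pomp was at 5.65 in progenitors, 5.12 in mature mast cells and 10.43 on the ILC2 array. Vomeronasal receptors are known mainly from sensory neurons. The other members of the inflammasome group lay at distances of 3.70 to 4.03 from Casp1.

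With levels below an array's median set to that median, Casp1 stood at least 3.92 above both mast cell arrays on the log2 scale. An excess of this size over both other arrays was found in 3 genes on the progenitor array, 6 on that of mature mast cells and 12 on that of ILC2s, Casp1 included. Of 1394 olfactory and vomeronasal receptor genes, a background chosen with the data known, 1 had such an excess in progenitors, 2 in mature mast cells and 1 on the ILC2 array. These receptor genes thus made up 1 of the 3, 2 of the 6 and 1 of the 12 genes, against 1394 of all 22180 genes. These counts are of very few genes, and the setting of low levels to the median was chosen after seeing the data. By measured levels, an excess of at least 4.71 was found in 4 genes on the ILC2 array, and 0 of these were receptor genes. It was found in 3 genes on the progenitor array, 1 of them a receptor gene. On the mature mast cell array it was found in 8 genes, 3 of them receptor genes. With 1 array and 1 probe set for Casp1, a second measurement of its level was not analysed here.

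Outside the 10 members, 67 genes of 7 related lists were measured. Of these, 0 were at least 4-fold different between progenitors and ILC2s, against 1.1% of all genes. Between mature mast cells and ILC2s 1 of 67 (1.49%) was at least 4-fold different, against 0.974% of all genes, and between progenitors and mature mast cells also 1, against 0.947%. At 2-fold, 1 of the 67 (1.49%) was counted between progenitors and mature mast cells, 2 (2.99%) between progenitors and ILC2s and 2 (2.99%) between mature mast cells and ILC2s, against 2.44%, 2.65% and 2.6% of all genes. The shares of the lists are thus near those of all genes, and the counts by list below, each of few genes, are read as descriptions. The median difference of the 67 genes was 0 in each comparison, and 26 had the same value on all arrays.

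The gene behind both 4-fold counts was Serpinb1a, which encodes an inhibitor of neutrophil serine proteases that has also been reported to restrain the inflammatory caspases. Its level was 8.27 in progenitors and 10.71 in mature mast cells, against 6.73 in ILC2s. All 3 arrays were above their medians, with the mast cell arrays above the ILC2 array, the reverse of the order of Casp1. It was 3.98 higher on the log2 scale in mature mast cells and 1.55 higher in progenitors than in ILC2s, and 2.44 separated the mast cell populations, with progenitors the lower.

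The other 9 listed inhibitors did not reach 2-fold in any comparison, a count near what the shares of all genes (2.44% to 2.65%) give. Trim30a, reported to restrain NLRP3 activation, was at 6.43 in progenitors, 5.84 in mature mast cells and 5.84 on the ILC2 array. Il1rn, which encodes the interleukin 1 receptor antagonist, was at 6.90 in progenitors, 6.89 in mature mast cells and 6.90 on the ILC2 array.

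Among 13 other sensors and partners none reached 2-fold, where 2.44% to 2.65% of all genes did. The nearest to it was Nek7, a kinase that binds NLRP3 and is needed for its assembly, at 6.15 in progenitors and 6.27 in mature mast cells, against 7.11 in ILC2s. Both mast cell arrays thus lay below the ILC2 array, as for Casp1. Since the mast cell levels lay below their medians, the folds are at least 1.74 in progenitors and at least 1.76 in mature mast cells, with the mast cells lower. Naip5, which recognises flagellin for NLRC4, was lower in progenitors at 7.07, with 7.65 in mature mast cells and 7.63 in ILC2s. Nlrp12 was at 7.48 in progenitors, 7.13 in mature mast cells and 7.30 on the ILC2 array.

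Of the 8 other gasdermin genes measured, 1 reached 2-fold, against 2.65% of all genes between progenitors and ILC2s and 2.6% between mature mast cells and ILC2s. Gsdmc3 was at 6.83 in progenitors and 7.46 in mature mast cells, against 5.78 in ILC2s, the same direction as Serpinb1a. Its differences from ILC2s were 1.05 in progenitors and 1.68 in mature mast cells. Since the ILC2 level lay below its median, the folds are at least 1.44 and at least 2.23.

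The 5 other caspases measured and the 8 genes of the caspase 8 complex and necroptosis included none past 2-fold, where 2.44% to 2.65% of all genes were counted. Zbp1, a nucleic acid sensor that engages the kinase RIPK3, was at 7.53 in progenitors and 7.0 in mature mast cells, against 6.80 in ILC2s, and Ripk3 itself was at 6.64 in progenitors and 6.64 in mature mast cells, against 6.84 in ILC2s. Casp6, an executioner caspase, was at 6.56 in progenitors, 6.55 in mature mast cells and 6.56 on the ILC2 array.

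None of the 7 interleukin 1 family ligands and receptors or of the 16 priming genes measured reached 2-fold, against 2.44% to 2.65% of all genes. Il18r1, a chain of the interleukin 18 receptor, was at 6.97 on all arrays. Nfkbia, an NF-kB inhibitor and itself an NF-kB target, was at 8.45 in progenitors, 8.45 in mature mast cells and 8.43 on the ILC2 array. It lies outside the naming rule and was picked with its values known, as a bright gene of the priming list. Panx1, a channel that releases ATP, was at 6.98 in progenitors, 7.04 in mature mast cells and 7.27 on the ILC2 array.

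**Figure D4:**
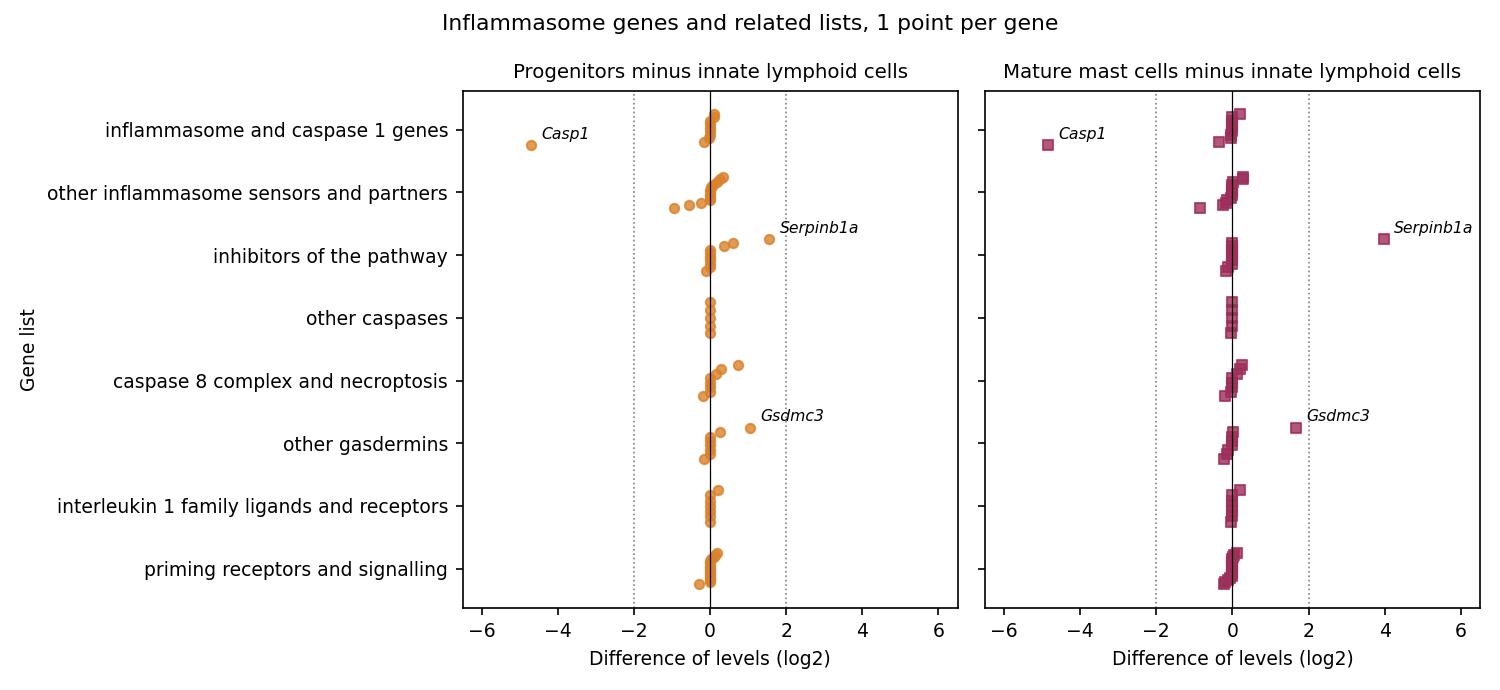
Differences of log2 levels from ILC2s (x axis) for the inflammasome genes and 7 related lists (y axis), progenitors in the left panel and mature mast cells in the right, 1 point per gene and dotted lines at 4-fold. Casp1 lies far below 0 and Serpinb1a above it in both panels, and most other points lie close to 0.

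The labels were checked against marker genes. Of 10 mast cell markers 3 were at least 4-fold higher in progenitors and 7 in mature mast cells than in ILC2s, led by Cpa3, mast cell carboxypeptidase. Of all genes, 0.207% and 0.573% were so counted. The mast cell marker Srgn went the other way in progenitors, at 8.13 against 8.81 in ILC2s. Transcripts of 3 genes for the sort markers c-kit and FcεRI differed by less than 2-fold between progenitors and ILC2s. The same 3 genes are among the 7 counted in mature mast cells, where they are not an independent check of the label. Kit was at 6.88 in progenitors and 10.29 in mature mast cells, against 6.63 in ILC2s, and Fcer1a, a chain of FcεRI, was at 5.37 in progenitors and 8.87 in mature mast cells, against 5.05 in ILC2s. Ms4a2, the β chain of that receptor, was at 6.25 in progenitors and 8.13 in mature mast cells, against 5.92 in ILC2s. The progenitor levels of Fcer1a and Ms4a2 were below the median of their array, although those cells were sorted as FcεRI positive. Of 11 ILC2 markers 3 were lower than in ILC2s by 4-fold or more in progenitors and also in mature mast cells (Il7r, Klrg1 and Arg1), while Rora and Thy1 had the same level on all arrays. The shares of all genes were 0.888% and 0.401%. Il7r is the gene for the sort marker CD127, so it is not an independent check of the labels either. Il2ra, the gene for the sort marker CD25, differed by less than 2-fold, at 6.58 in both mast cell populations and 7.25 in ILC2s. Il13 was higher in progenitors (7.65) than in ILC2s (7.41). Genes of the inflammasome are also expressed by macrophages and neutrophils, which share the peritoneal cavity. Of 42 markers of macrophages and monocytes, neutrophils, B cells, T and natural killer cells and dendritic cells, 0 reached 2-fold in any comparison. This is near what the shares of all genes (2.44% to 2.65%) give. The largest difference was 0.56 in size, for Ly6g, which lay below the median of every array. Of the 42 markers, 15 had the same value on all arrays, and several lay below the medians, where low levels would not be seen. The macrophage gene Lyz2 was at 6.60 in progenitors and 6.55 in mature mast cells, against 6.83 in ILC2s, and Csf1r was at 6.64 in progenitors and 6.41 in mature mast cells, against 6.60 in ILC2s. The part of other cells in the Casp1 level was not tested.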

How the data were processed

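The deposited table holds log2 expression levels of 41345 probe sets on 3 arrays, which the authors computed by RMA, per the submitters' processing notes; software and version are not given in the sources used here. The values span 2.23 to 13.7, as log2 RMA output does. The platform's gene table named the probe sets: 23521 name a single gene, 1814 several, and 16010 were unnamed in it. A gene was represented by whichever of its single-gene probe sets was brightest on average, for 22180 genes. The log2 differences were taken between arrays with Python 3.11.15, pandas 2.3.3 and numpy 2.4.6. No test was run, since each population has 1 array. Genes were counted at a log2 difference of at least 2 (4-fold) or 1 (2-fold), with the brighter array above its median. The 4-fold counting between progenitors and ILC2s was tested on simulated data, with large differences put into bright genes only. That test does not cover dim genes, genes of equal value or the 2-fold count. Probe-level signals and the genome build of the array design were not used here. Gene neighbours and sequences are from RefSeq, GRCm38.p6.

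The members and lists were chosen with earlier results of these data known. All members are named. From each other list up to 4 genes were eligible, those with the largest difference among genes above a median, and any past 4-fold. Of these a part is described, picked with values known. Rora, Thy1, Ly6g, Casp12, Nfkbia, Srgn, Il2ra and Il13 lie outside this rule. They were chosen after their values were seen, as was each neighbour of Casp1. Alternatives were no floor, floors at the 75th and 95th percentile, arrays set to one median or quantile normalized, and the mean or the dimmest probe set of a gene. Listed genes that the table did not name singly were not analysed here.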

Additional observations from a re-analysis of the deposited data

How the results depend on the processing

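No paired analysis was possible because each population has 1 array. ILC2s are type 2 innate lymphoid cells. Under 7 alternatives fixed with the design and 1 added after seeing the data, which left out genes of equal value on all arrays, the counts of members past 4-fold and 2-fold were as given in each comparison. Casp1 differed by -4.72 to -4.54 between progenitors and ILC2s, and by -4.85 to -4.66 between mature mast cells and ILC2s. Only setting arrays to one median or quantile normalization could move these differences. Casp1 has 1 probe set and a difference does not use the floor, so the other alternatives left it unchanged by construction. The other members stayed within 0.35 in size. The added alternative changed the share of all genes past 4-fold to 1.82% (progenitors and mature mast cells), 2.1% (progenitors and ILC2s) and 1.87% (mature cells and ILC2s), and past 2-fold to 4.68%, 5.08% and 4.99% in the same order, by its construction, since fewer genes are compared. Serpinb1a, which also has 1 probe set and could be moved only by the same 2 settings, kept its direction. Its differences were 3.91 to 3.99 between mature mast cells and ILC2s. With low levels set to the median, a further alternative chosen after seeing the data, 34 genes differed as much as Casp1 between progenitors and ILC2s and 31 between mature mast cells and ILC2s, against 24 and 17 by measured levels. Of the members, 6 lay below the median of every array (Casp1 not counted), and low signal limits what can be seen of them.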

Other observations

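Values of several members were shared with many other probe sets of the same array to the last deposited digit. The Aim2 value was found in 64 single-gene probe sets in progenitors, 64 in mature mast cells and 60 on the ILC2 array, itself included. The Il1b value was found in 70 in progenitors and 69 in mature mast cells but in 1, its own, in ILC2s, where it lay 0.03 higher. The value of the brighter Gsdmd probe set was found in 44 in progenitors, 48 in mature mast cells and 46 on the ILC2 array, and in ILC2s it was also the value of Pycard. The Casp1 and Nlrp3 values were found in no other probe set of their arrays. The reason for the sharing was not tested.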
